A study of Mus musculus with 8 samples.

Results

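Genes of families with secreted products in the adult mouse epididymis were followed here in the epididymal duct shortly before birth. The set held the beta-defensin genes (Defb and a number), the lipocalin genes (Lcn and a number) and 12 further genes, namely Crisp1, Crisp4, Rnase9, Rnase10, Cst8, Cst11, Spink11, Adam7, Adam28, Ovch2, Gpx5 and Clu. Members were chosen by symbol alone, without pseudogene names, so the set can hold genes that the adult epididymis does not express. This gave 64 of the 46517 genes counted. All 64 are annotated as protein-coding genes.

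The epididymis forms from the Wolffian duct and is the tube in which sperm mature. In the adult its epithelium secretes proteins that coat and protect sperm, in segments from the caput to the cauda, under hormones and factors arriving in the lumen from the testis. Beta-defensins are small cationic secreted peptides, several of which bind to the sperm surface, and lipocalins carry small lipophilic molecules. Most of this program is known to switch on after birth.

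Epididymal ducts were dissected from mouse embryos at E18.5, and total RNA was sequenced in 4 libraries labelled Ptk7 cKO (numbers 1, 2, 4 and 5) and 4 control libraries (numbers 1, 3, 4 and 6). The conditional knockouts were Ptk7 Xst87/flox, in which Xst87 is a disrupted allele, and the controls were Ptk7 +/flox. Both groups carried the T-Cre transgene and the mT/mG membrane reporter, so the controls also held a floxed allele together with Cre. T-Cre is driven by regulatory sequence of the mesodermal gene T (brachyury) and is therefore not restricted to the duct epithelium. Ptk7 encodes a receptor-like pseudokinase of planar cell polarity. The labels do not say that each library came from a separate embryo, so p-values measure only the spread between these libraries.

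Libraries held 24807970 to 29590547 counts. Ptk7 stood at 7.33, 7.59 and 12.5 CPM, counts scaled to a common library size, in Ptk7 cKO 1, 2 and 4 and at 194 CPM in the library labelled Ptk7 cKO 5, against 189, 112 and 313 CPM in control 1, 3 and 4 and 169 CPM in control 6. The library labelled Ptk7 cKO 5 thus lay within the control range, and results are given with and without it. Over 8 libraries Ptk7 gave a log2 fold change of -1.82 with an SE of 0.95 (edgeR adjusted p = 0.655). Once that library was left out, the value was -4.42 (edgeR adjusted p = 0.00805). All 25 markers of duct epithelium had counts. Their summed level was 1585 to 2197 CPM in the cKO-labelled libraries and 1915 to 2209 CPM in the controls. Smooth muscle markers summed to 2555 to 3250 CPM in the cKO-labelled libraries and 3270 to 3904 CPM in the controls, so the ducts were not epithelium alone.

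Before birth the secretory set was uneven. At least 1 count was found for 41 of the 64 members, and 23 stood at 0 in all 8 libraries. Among all genes counted 57.12% had a count and among protein-coding genes 81.68%, against 64.06% of the members. A summed count of 10 or more was reached by 25 members (39.06%), against 74.05% of protein-coding genes. Of these, 13 members (20.31%) passed the filter for testing, against 65.73% of protein-coding genes. A summed count of 0 allows up to 3 counts, or 0.0140 CPM over the 8 libraries, which covers counting error only. Members with a count numbered 22 to 26 per library in the cKO-labelled libraries and 27 to 32 in the controls. Total counts were 24807970 to 26363401 in the cKO-labelled libraries and 25466675 to 29590547 in the controls. The share of all genes with a count in each library was not computed, and the part of depth was not tested.

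Lcn2 and Clu carried 90.45% of the members' 90565 counts. Lcn2 (ENSMUSG00000026822, chr2:32384633-32388252, GRCm38) encodes the siderophore-binding lipocalin of neutrophil granules and many epithelia. Clu (ENSMUSG00000022037, chr14:65968483-65981548) encodes clusterin, an extracellular chaperone abundant in adult epididymal fluid. Per length, Lcn2 stood at 74.4 ± 16.6 CPM per kb (SD, n = 8), which ranked 881 of the 16469 genes tested. The level of Clu per length was 53.7 ± 9.42 CPM per kb (SD, n = 8), which ranked 1223. Next came Defb29 (ENSMUSG00000044249, chr2:152538714-152540098) at 37.2 ± 9.18 CPM per kb, followed by Defb19 at 13.0 ± 9.88 and Defb20 at 7.19 ± 2.96 CPM per kb. Crisp1, which encodes a protein of the sperm coat, stood at 2.62 ± 0.622 CPM per kb, and Ovch2, a caput protease needed for sperm ADAM3 maturation, at 0.382 ± 0.133 CPM per kb.

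**Figure D1:**
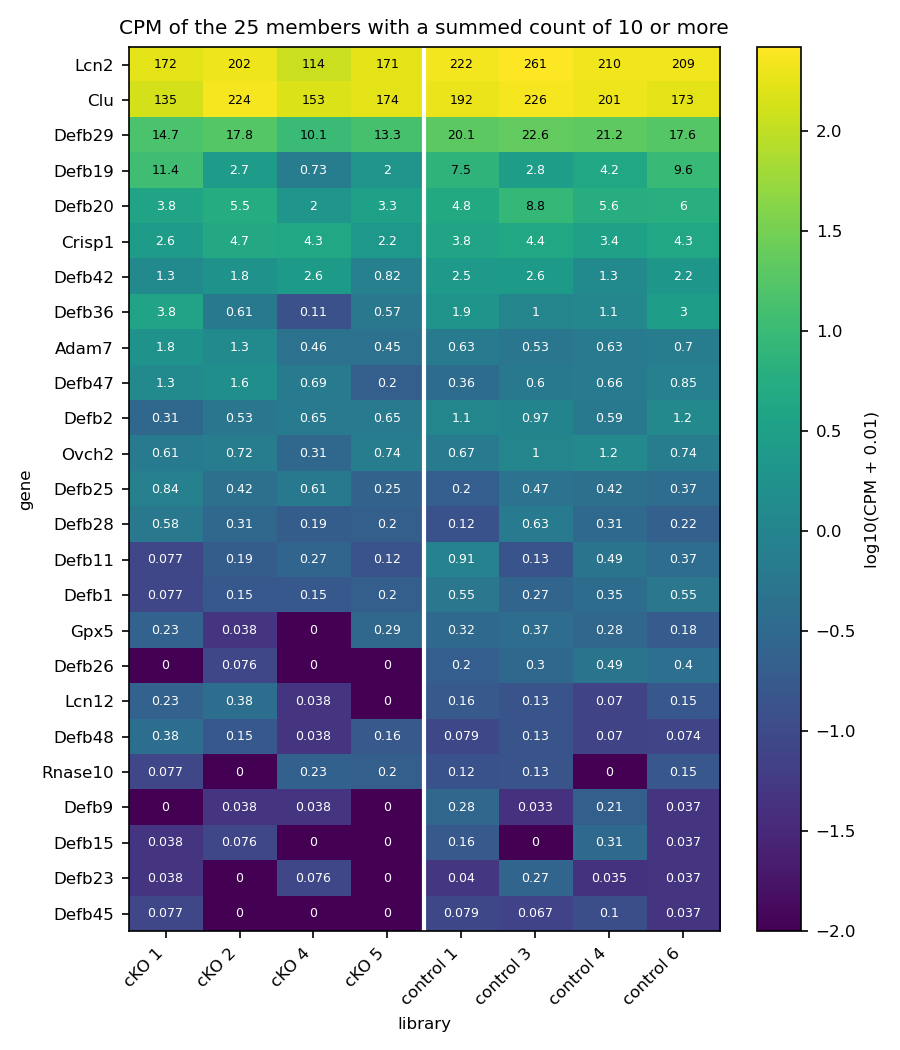
Level in CPM (colour, log scale) of the 25 members with a summed count of 10 or more in each of the 4 libraries labelled Ptk7 cKO (left) and the 4 control libraries (right). Lcn2 and Clu stood above 100 CPM in all 8 libraries, Defb29 between 10.1 and 22.6 CPM, and most others near or under 1 CPM.

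Many members were absent or nearly so, among them some genes known from the adult epididymis. Crisp4, which encodes a further sperm-binding CRISP protein, was at 0 in every library. Rnase9, whose product is a secreted RNase-family protein without the usual catalytic residues, was also at 0. Of the 10 lipocalin genes, Lcn3, Lcn4 and Lcn6 were at 0, and Lcn5 (epididymal retinoic acid-binding protein), Lcn9 and Lcn10 had 1 count each. The cystatin-related genes Cst8 and Cst11 also had 1 count each. In all 8 members had a single count, the others being Defb13, Defb21 and Defb41, and 8 more had 2 to 9 counts, from Adam28, Defb12 and Defb35 at 2, through Defb30 at 3, Lcn8 at 5, Spink11 at 6 and Defb10 at 7, to Lcn11 at 9. The beta-defensin genes at 0 were Defb3 to Defb8 without exception, Defb14, Defb18, Defb22, Defb33, Defb34, Defb37 to Defb40, Defb43, Defb46 and Defb50.

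Gpx5, the secreted glutathione peroxidase of the adult caput, had low counts throughout. They were 6, 1, 0 and 7 in Ptk7 cKO 1, 2, 4 and 5, against 8, 11, 8 and 5 in control 1, 3, 4 and 6. Lcn12 had 6, 10, 1 and 0 counts in the cKO-labelled libraries and 4, 4, 2 and 4 in the controls. Rnase10 had 2, 0, 6 and 5 counts in the cKO-labelled libraries and 3, 4, 0 and 4 in the controls. All 3 genes overlapped between the groups.

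Detection differed between chromosomal clusters. Members within 500000 bases of each other were joined, which gave 6 clusters of 3 or more. The cluster at chr2:152459055-152623053 held 11 beta-defensin genes, of which 10 had counts, and chromosome 2 as a whole carried 87.29% of the 7388 beta-defensin counts. Defb29 alone held 50.3%. The cluster at chr8:18974940-19497775 held 14 beta-defensin genes, of which Defb12 had 2 counts and the other 13 had none. On the same chromosome, the cluster at chr8:21776599-21948850 had counts for 8 of its 9 genes, 335 in all. The lipocalin cluster at chr2:25490845-25825537 held 8 genes with 48 counts between them, the chromosome 14 cluster of Defb42, Defb47 and 3 more genes held 601, and the chromosome 1 cluster of Crisp4, Defb18 and Defb41 held 1. The chromosome 8 clusters, which lie apart with Defb33 at 0 counts between them, therefore differed from almost no counts to counts for nearly all genes. In the cluster with 335 counts, Defb13, Defb35 and Defb10 had only 1, 2 and 7.

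**Figure D2:**
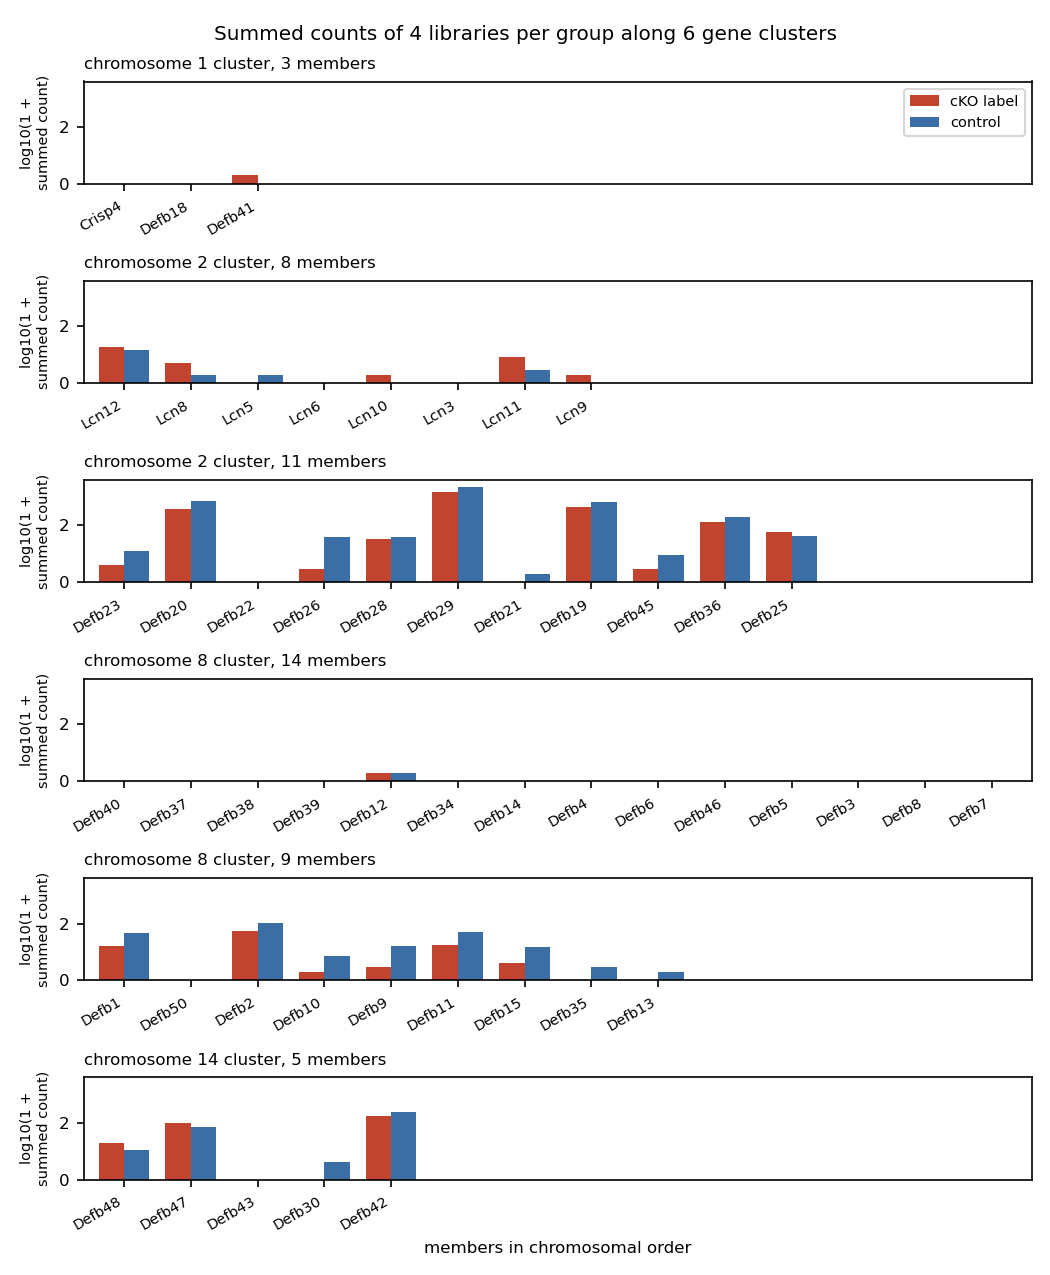
Summed counts of the members in 6 chromosomal clusters, cKO-labelled libraries beside control libraries. The chromosome 2 beta-defensin cluster held 2478 counts in the cKO-labelled libraries and 3971 in the controls, and the second chromosome 8 cluster 93 in the cKO-labelled libraries and 242 in the controls.

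The sequence before the start of 4 genes of the chromosome 2 cluster is printed because most beta-defensin counts came from that cluster and its genes differed widely in level: Defb29 was the highest beta-defensin, Defb20 and Defb36 lay below it, and Defb26 was nearly absent from the cKO-labelled libraries. Each is the 250 bases upstream of the annotated start in RefSeq on GRCm38.p6, read 5′ to 3′ on the gene's strand. That of Crisp1 is added as a member with a TATA box, whose letters TATAAA are in capitals. The regions are chr17:40319208-40319457 (minus strand) for Crisp1, chr2:152511737-152511986 (minus strand) for Defb26, chr2:152604077-152604326 (plus strand) for Defb36, chr2:152476813-152477062 (plus strand) for Defb20 and chr2:152540042-152540291 (minus strand) for Defb29.
Crisp1: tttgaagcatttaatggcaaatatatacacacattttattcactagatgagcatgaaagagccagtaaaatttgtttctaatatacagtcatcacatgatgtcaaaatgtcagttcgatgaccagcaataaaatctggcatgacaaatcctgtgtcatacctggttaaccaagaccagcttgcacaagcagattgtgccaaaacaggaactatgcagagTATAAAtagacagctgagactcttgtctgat
Defb26: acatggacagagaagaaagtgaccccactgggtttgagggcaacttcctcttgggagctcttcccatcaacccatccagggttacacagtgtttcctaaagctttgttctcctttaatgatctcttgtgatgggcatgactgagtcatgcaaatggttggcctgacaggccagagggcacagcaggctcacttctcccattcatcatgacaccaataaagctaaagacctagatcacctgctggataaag
Defb36: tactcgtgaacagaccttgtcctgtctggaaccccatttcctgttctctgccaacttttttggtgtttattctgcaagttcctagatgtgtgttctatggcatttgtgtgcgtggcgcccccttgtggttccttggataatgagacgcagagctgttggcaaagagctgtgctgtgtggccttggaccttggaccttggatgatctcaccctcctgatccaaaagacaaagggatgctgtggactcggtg
Defb20: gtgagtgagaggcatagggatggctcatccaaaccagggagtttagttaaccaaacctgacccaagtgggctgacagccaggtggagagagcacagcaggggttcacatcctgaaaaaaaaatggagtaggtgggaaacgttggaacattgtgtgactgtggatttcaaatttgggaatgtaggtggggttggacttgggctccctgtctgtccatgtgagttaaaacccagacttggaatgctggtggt
Defb29: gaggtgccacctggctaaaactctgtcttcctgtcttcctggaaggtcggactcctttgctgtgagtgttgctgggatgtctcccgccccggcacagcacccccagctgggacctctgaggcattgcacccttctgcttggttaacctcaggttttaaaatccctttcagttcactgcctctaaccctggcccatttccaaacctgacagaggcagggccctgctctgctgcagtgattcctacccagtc
TATAAA lay 31 bases before the start of Crisp1 and was not in the windows of the other 4 genes. Upstream sequence was found for 46 of the 64 members. The start used was not always that of the counted gene. The last 57 bases of the Defb29 window lay inside the counted gene, and the Defb26 start was 44 bases away. The largest distances were 12114 bases for Defb30, 2914 for Defb45 and 513 for Lcn2. TATAAA on the gene's strand was in 6 of the 46, against 2494 of 32851 promoters of the same length (7.592%). It was in 4 of the 19 with 10 or more counts and in 1 of the 16 at 0. The letters CCGGAAG, the ETS core, were on either strand in none of the 46, against 6.907% of all. The members' windows were poorer in G and C, with a median of 48.0% against 52.4% over all promoters. A match describes letters and is not a bound site.

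Between the groups, no member passed the test at an edgeR adjusted p under 0.05. None of the 16469 genes tested passed either (0%). The lowest edgeR adjusted p among all genes was 0.161. DESeq2 called 186 of the 15502 genes with an adjusted p (1.2%) and no member. At an unadjusted p under 0.05 edgeR had 8.37% of all genes and 4 of the 13 members, all of them lower in the cKO-labelled libraries: Lcn2, Defb20, Defb29 and Defb2. The share of all genes that were lower at that level was 4.87%, and 3.5% were higher. The log2 fold change was below 0 in 10 of the 13 members, against 48.6% of all genes, and its median was -0.45, against 0.01 over all genes. Without the library labelled Ptk7 cKO 5, 4 members were lower at that level (5% of all genes) and 2 higher (3.74%), 10 of 13 were below 0 (48.3% of all), and the median was -0.22. Without Ptk7 cKO 4, 4 were lower (4.23%) and 1 higher (2.72%), 10 of 13 were below 0 (49.1%), and the median was -0.30. The tested members form a small group in which several genes share a chromosome cluster and libraries, so no test was made over them.

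**Figure D3:**
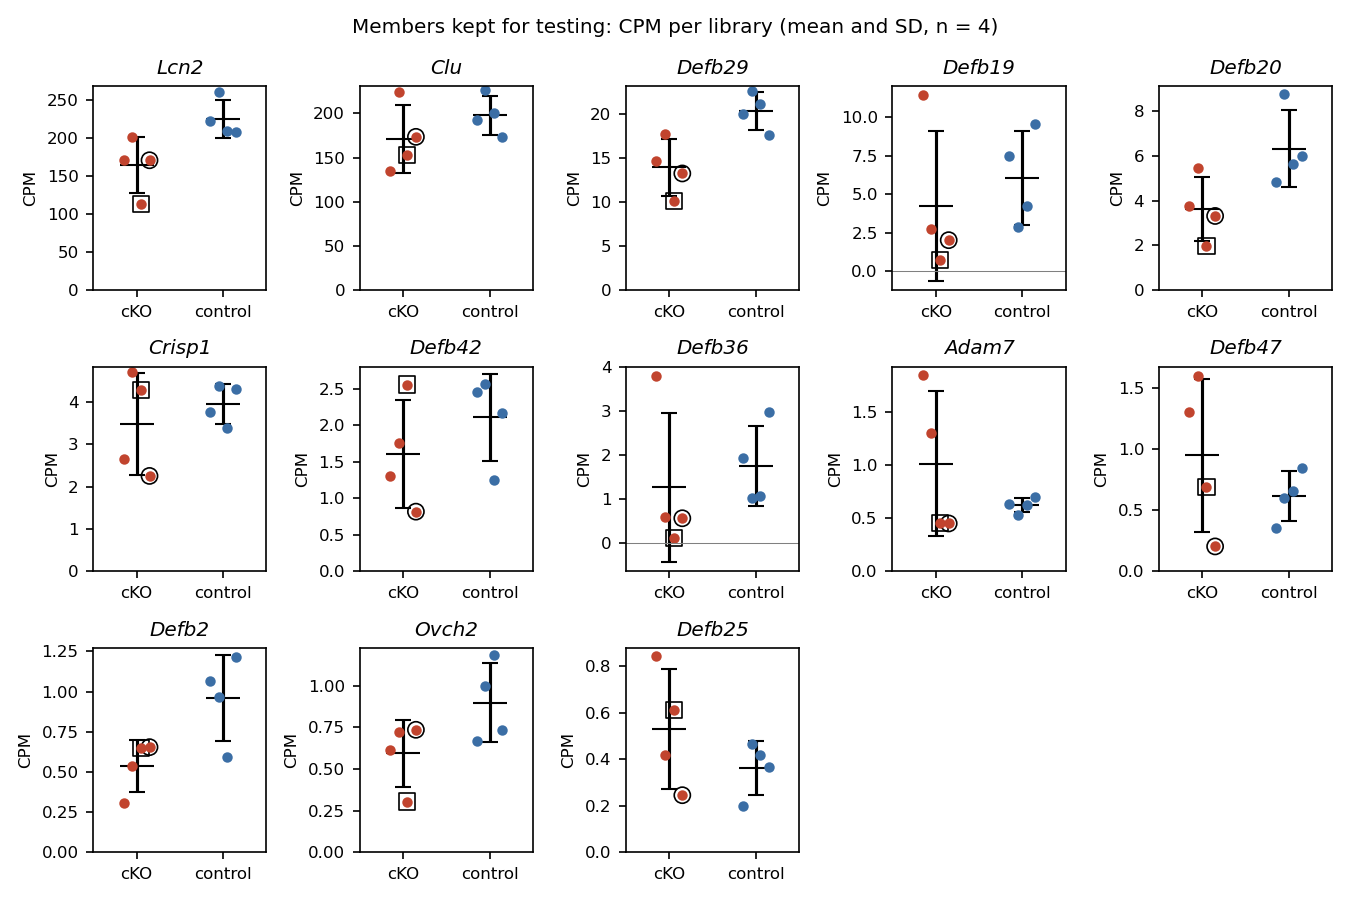
CPM of the 13 tested members in each library, cKO-labelled libraries left of controls, with mean ± SD (n = 4 each). The ring marks the library labelled Ptk7 cKO 5 and the square Ptk7 cKO 4, and Lcn2 was the only one of these 13 whose groups did not overlap.

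Lcn2 had 172, 202, 114 and 171 CPM in Ptk7 cKO 1, 2, 4 and 5, against 222, 261, 210 and 209 CPM in control 1, 3, 4 and 6. Each cKO-labelled library lay below each control, with Ptk7 cKO 4 the lowest. Among all genes tested 3.11% were lower without overlap and 2.65% higher. The mean was 165 ± 36.9 CPM in the cKO-labelled libraries and 226 ± 24.6 CPM in the controls (SD, n = 4 each), and the log2 fold change was -0.45 ± 0.15 (SE, edgeR adjusted p = 0.425, DESeq2 adjusted p = 0.178). It stood at -0.47 with the library labelled Ptk7 cKO 5 left out and at -0.31 with Ptk7 cKO 4 left out. With control 3 left out, the value was -0.37. Lcn2 is also a neutrophil granule gene, and the 11 neutrophil markers summed to 9.53 to 20.6 CPM in the cKO-labelled libraries and 4.70 to 9.67 CPM in the controls, with counts for 10 of the 11 and Elane at 0. Their part in the Lcn2 values was not tested.

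Clu had 135, 224, 153 and 174 CPM in the cKO-labelled libraries and 192, 226, 201 and 173 CPM in the controls. The groups overlapped, with means of 171 ± 38.4 CPM in the cKO-labelled libraries and 198 ± 22.1 CPM in the controls (SD, n = 4 each), and the log2 fold change was -0.21 ± 0.15 (edgeR adjusted p = 0.728). It was -0.11 with Ptk7 cKO 1 left out, -0.37 with Ptk7 cKO 2 left out and -0.14 with control 3 left out.

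The most abundant beta-defensin, Defb29, had 14.7, 17.8, 10.1 and 13.3 CPM in Ptk7 cKO 1, 2, 4 and 5, against 20.1, 22.6, 21.2 and 17.6 CPM in control 1, 3, 4 and 6. Ptk7 cKO 2 alone reached the lowest control, and the mean was 14.0 ± 3.20 CPM in the cKO-labelled libraries and 20.4 ± 2.12 CPM in the controls (SD, n = 4 each). The log2 fold change was -0.54 ± 0.16 (edgeR adjusted p = 0.340, DESeq2 adjusted p = 0.0810), and -0.52 with the library labelled Ptk7 cKO 5 left out. Its neighbour Defb20 had 3.76, 5.46, 1.98 and 3.31 CPM in the cKO-labelled libraries and 4.82, 8.76, 5.60 and 5.99 CPM in the controls, which overlapped. The log2 fold change of Defb20 was -0.80 ± 0.28 (edgeR adjusted p = 0.476). It was -0.59 with control 3 left out (edgeR unadjusted p = 0.0605).

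A further pair of genes in the cluster varied far more between libraries than between groups. Defb19, known from Sertoli cells of the fetal testis, had 11.4, 2.71, 0.725 and 2.0 CPM in Ptk7 cKO 1, 2, 4 and 5, against 7.51, 2.83, 4.25 and 9.56 CPM in control 1, 3, 4 and 6. Defb36 had 3.8, 0.610, 0.115 and 0.573 CPM in the cKO-labelled libraries and 1.94, 1.03, 1.08 and 2.98 CPM in the controls. The highest library was 15.8-fold over the lowest for Defb19 and 33.2-fold for Defb36, against 2.23-fold for Defb29. Both genes put the 8 libraries in the same order, with Ptk7 cKO 1 first and Ptk7 cKO 4 last. The log2 fold changes were -0.51 ± 0.67 for Defb19 and -0.45 ± 0.75 for Defb36, and leaving out a library moved Defb19 between -1.73 (Ptk7 cKO 1) and -0.16 (Ptk7 cKO 4) and Defb36 between -2.01 (Ptk7 cKO 1) and -0.07 (Ptk7 cKO 4). Amh, the defining Sertoli cell gene, was at 0.153 to 0.305 CPM in the cKO-labelled libraries and 0.0999 to 0.331 CPM in the controls, and Insl3, which defines Leydig cells, was at or under 0.0395 CPM in all 8. The 15 markers of Sertoli, Leydig and germ cells summed to 31.9 to 46.2 CPM in the cKO-labelled libraries and 37.7 to 47.6 CPM in the controls, with counts for all 15 and most of the sum from genes that other cells share, such as Sox9 at 9.20 to 17.7 CPM in the 8 libraries.

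**Figure D4:**
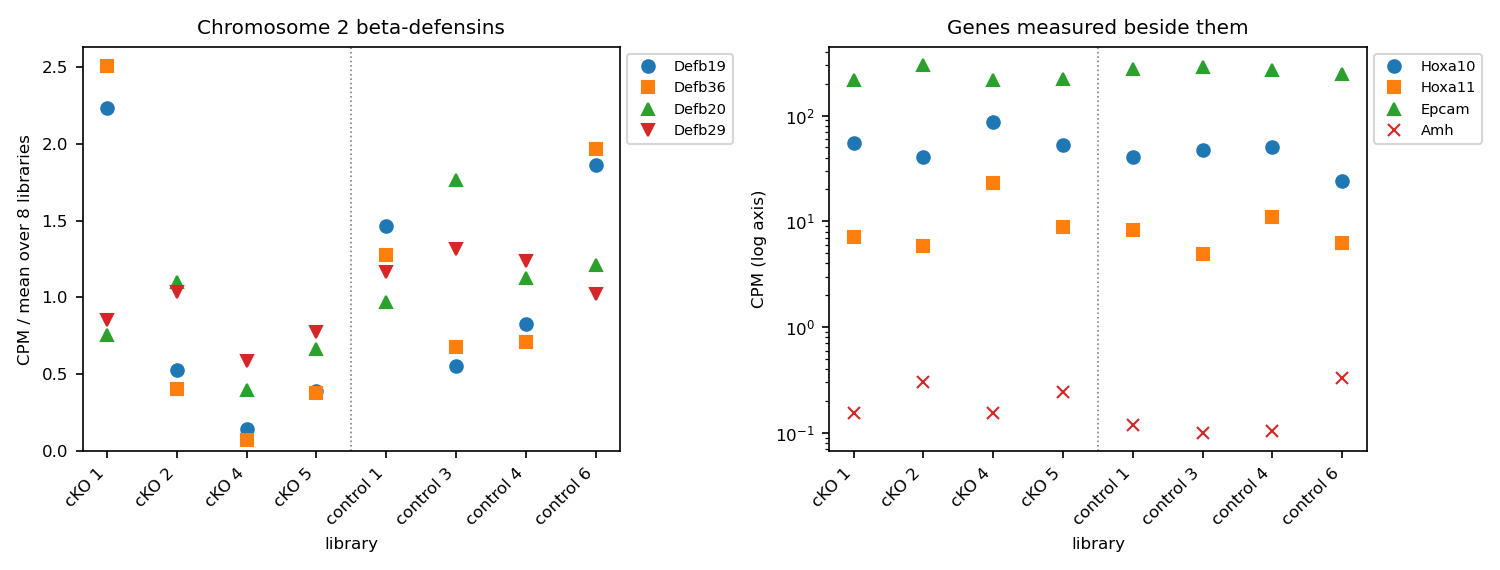
Left, CPM of Defb19, Defb36, Defb20 and Defb29 divided by their mean over the 8 libraries, cKO-labelled libraries left of controls; right, CPM of Hoxa10, Hoxa11, Epcam and Amh on a log axis. Defb19 and Defb36 follow each other, highest in Ptk7 cKO 1 and lowest in Ptk7 cKO 4, where Hoxa11 was highest at 23.1 CPM.

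Ptk7 cKO 4 was the lowest library in 6 of the 13 members, against 14.94% of all genes tested. The library also had the highest Hoxa10 (86.8 CPM, against 40.7 to 54.4 CPM in the other cKO-labelled libraries and 24.0 to 50.5 CPM in the controls). Its Hoxa11 was 23.1 CPM, against 5.88 to 8.83 CPM in the other cKO-labelled libraries and 4.89 to 10.9 CPM in the controls. Both are known from more distal levels of the duct, and they were picked with their values in view. The part of dissection level in the members' values was not tested.

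The remaining cluster gene, Defb25, had 0.844, 0.420, 0.611 and 0.245 CPM in the cKO-labelled libraries and 0.198, 0.466, 0.418 and 0.368 CPM in the controls (log2 fold change 0.54 ± 0.41, edgeR adjusted p = 0.749). It was 0.22 with Ptk7 cKO 1 left out and 0.35 with control 1 left out. Below the filter, Defb26 had 0, 2, 0 and 0 counts in Ptk7 cKO 1, 2, 4 and 5, against 5, 9, 14 and 11 counts in control 1, 3, 4 and 6. These groups did not overlap, and the ratio of the summed counts over the library sizes was 0.0554 (exact 95% counting interval 0.0065 to 0.214, which leaves out the spread between libraries). Fitted with no filter, it had an edgeR adjusted p of 0.106, or 0.196 if the library labelled Ptk7 cKO 5 was left out. In that fit 1 of 26572 genes passed (0.00376%), and it was not a member. Defb26 reached a summed count of 10 through the controls alone.

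The 9 beta-defensin genes of the second chromosome 8 cluster were low in both groups. Their summed level was 0.499, 1.03, 1.11 and 0.982 CPM in Ptk7 cKO 1, 2, 4 and 5, against 3.0, 1.46, 2.02 and 2.35 CPM in control 1, 3, 4 and 6. No cKO-labelled sum reached the lowest control sum, while the sums of the other 3 clusters with 10 or more counts overlapped between the groups. How often sums over other sets of low genes separate in this way was not computed. The sum also holds Defb9 and Defb15, which reached a summed count of 10 through the controls alone. Defb50 was at 0, and Defb13, Defb35 and Defb10 had 1, 2 and 7 counts, so the sum rests mainly on Defb2, Defb11 and Defb1. Defb1, the constitutively expressed epithelial beta-defensin, had 2, 4, 4 and 5 counts in the cKO-labelled libraries and 14, 8, 10 and 15 in the controls, with no overlap. Its log2 fold change with no filter was -1.52 ± 0.48 (edgeR adjusted p = 0.410). Defb2 had 0.307, 0.534, 0.649 and 0.654 CPM in the cKO-labelled libraries and 1.07, 0.966, 0.592 and 1.21 CPM in the controls, which overlapped (log2 fold change -0.83 ± 0.32, edgeR adjusted p = 0.507). Defb11 had 2, 5, 7 and 3 counts in the cKO-labelled libraries and 23, 4, 14 and 10 in the controls. The counts of Defb9 and Defb15 were 2 and 3 over the cKO-labelled libraries and 15 and 14 over the controls. Defb2 and Defb11 share 20.7% and 19.8% of their 50-base stretches with other genes, and Defb9 and Defb10 share 10% and 16.9%, so how reads were split among these copies is uncertain.

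Over the 12 members with 10 or more counts that the filter dropped, 2 were lower without overlap (Defb26 and Defb1) and none higher. Among all 4189 such genes 1.5% were lower without overlap and 1.43% higher. With no filter, 4 of the 12 (Defb26, Defb1, Defb9 and Defb11) were lower at an unadjusted edgeR p under 0.05. The share was 2.6% of such genes and 3.59% of all genes with a count. With the library labelled Ptk7 cKO 5 left out, 2 of the 12 were lower at that level (Defb26 and Defb1), against 1.98% of such genes. Like Defb26, the genes Defb9, Defb15 and Defb23 reached a summed count of 10 through the controls alone. The counts of lower members are therefore not independent of how the 12 were picked. The other low genes overlapped between the groups. Defb28 had 15, 8, 5 and 5 counts in the cKO-labelled libraries and 3, 19, 9 and 6 in the controls. Defb48 had 10, 4, 1 and 4 counts in the cKO-labelled libraries and 2, 4, 2 and 2 in the controls. The summed counts of Defb23 and Defb45 were 3 and 2 in the cKO-labelled libraries and 11 and 8 in the controls.

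On chromosome 14 the tested members did not share a direction. Defb42 had 1.30, 1.76, 2.56 and 0.818 CPM in the cKO-labelled libraries and 2.45, 2.56, 1.25 and 2.17 CPM in the controls (log2 fold change -0.39 ± 0.34, edgeR adjusted p = 0.782). Defb47 had 1.30, 1.60, 0.687 and 0.204 CPM in the cKO-labelled libraries and 0.356, 0.599, 0.661 and 0.846 CPM in the controls (log2 fold change 0.62 ± 0.50, edgeR adjusted p = 0.759). Adam7, a membrane protein passed from the epididymis to sperm, had 1.84, 1.30, 0.458 and 0.450 CPM in the cKO-labelled libraries and 0.632, 0.533, 0.626 and 0.699 CPM in the controls (log2 fold change 0.70 ± 0.44, edgeR adjusted p = 0.702). For Adam7, Ptk7 cKO 1 and 2 lay above all controls and Ptk7 cKO 4 and the library labelled Ptk7 cKO 5 below them. The value of Adam7 was 0.25 with Ptk7 cKO 1 left out and 0.94 with the library labelled Ptk7 cKO 5 left out (edgeR adjusted p = 0.906 and 0.568). That of Defb47 was 0.25 with Ptk7 cKO 2 left out and 0.95 with the library labelled Ptk7 cKO 5 left out (edgeR adjusted p = 0.931 and 0.50). Leaving out 1 library at a time moved Defb42 between -0.70 (Ptk7 cKO 4) and -0.17 (the library labelled Ptk7 cKO 5).

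Crisp1 differed little between the groups, with 2.65, 4.69, 4.28 and 2.25 CPM in Ptk7 cKO 1, 2, 4 and 5, against 3.75, 4.36, 3.38 and 4.30 CPM in control 1, 3, 4 and 6 (log2 fold change -0.19 ± 0.24, edgeR adjusted p = 0.844). Ovch2 had 0.614, 0.725, 0.305 and 0.736 CPM in the cKO-labelled libraries and 0.672, 0.999, 1.18 and 0.735 CPM in the controls (log2 fold change -0.60 ± 0.32, edgeR adjusted p = 0.675). Both genes overlapped between the groups. Leaving out 1 library at a time moved Crisp1 between -0.37 (Ptk7 cKO 2) and -0.03 (the library labelled Ptk7 cKO 5), and Ovch2 was at -0.38 with Ptk7 cKO 4 left out.

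**Figure D5:**
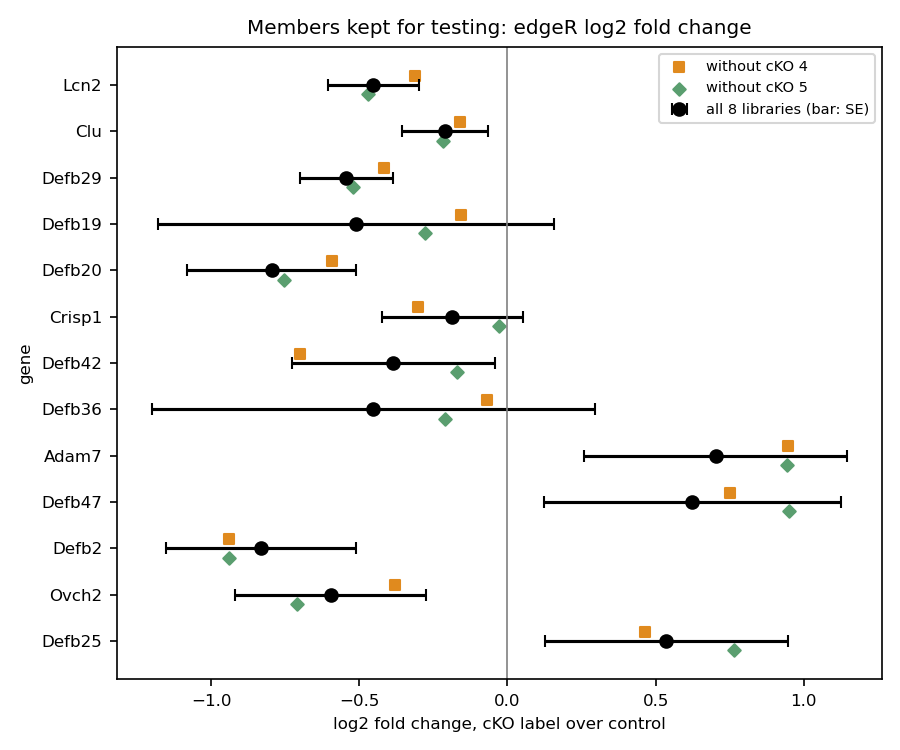
Log2 fold change (cKO label over control, edgeR) ± SE of the 13 tested members over all 8 libraries, without Ptk7 cKO 4 and without the library labelled Ptk7 cKO 5. All 13 keep their direction in the 3 fits, with Adam7, Defb47 and Defb25 above 0 and the other 10 below 0.

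The markers of the duct epithelium, the cells that secrete in the adult, were set beside these values. Of the 25 epithelial markers, 22 had a log2 fold change below 0 (48.6% of all genes tested), and the median was -0.28. At an unadjusted edgeR p under 0.05, 12 were lower (4.87% of all genes). No marker passed in edgeR, and 3 were lower in DESeq2, which called 1.2% of all genes in either direction. The 3 markers with log2 fold changes above 0 were Krt19 at 0.47, Cldn4 at 0.18 and Krt8 at 0.12. Krt19 is also in the list of mesothelial markers, so it enters both sums. The summed levels of the epithelial markers given above overlapped. Those of smooth muscle did not overlap and were lower in the cKO-labelled libraries. The most abundant, Epcam, had 218, 298, 215 and 221 CPM in the cKO-labelled libraries and 275, 287, 271 and 247 CPM in the controls. In a bulk sample, fewer epithelial cells and less RNA per cell cannot be told apart. Per 1000 CPM of the summed epithelial markers, a ratio chosen after the values were seen, Lcn2 was 88.3 ± 11.6 in the cKO-labelled libraries and 109.7 ± 15.6 in the controls (SD, n = 4 each). On this ratio the Lcn2 groups overlapped, with Ptk7 cKO 1 at 98.7 and control 4 at 95.1. Defb29 was 7.49 ± 0.949 in the cKO-labelled libraries and 9.88 ± 1.01 in the controls, and was the only tested member without overlap on this ratio. The share of all genes without overlap on this ratio was not computed, so whether Defb29 stands out on it cannot be told. Defb20 was 1.91 ± 0.531 in the cKO-labelled libraries and 3.08 ± 0.959 in the controls, and Clu was 91.9 ± 10.5 in the cKO-labelled libraries and 96.1 ± 11.9 in the controls. On the same ratio Adam7 was 0.544 ± 0.376 in the cKO-labelled libraries and 0.302 ± 0.0428 in the controls, Defb47 was 0.505 ± 0.301 in the cKO-labelled libraries and 0.302 ± 0.113 in the controls, and Defb25 was 0.298 ± 0.165 in the cKO-labelled libraries and 0.177 ± 0.0604 in the controls. No test was made on this ratio. Mesothelial markers summed to 794 to 1005 CPM in the cKO-labelled libraries and 621 to 757 CPM in the controls, and macrophage markers to 290 to 396 CPM in the cKO-labelled libraries and 229 to 338 CPM in the controls. Their part in the members' values was not tested.

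Of 30 genes outside the member rule that the adult epididymis secretes or displays, 26 had counts and 12 were tested. The log2 fold change was below 0 in 10 of the 12, against 48.6% of all genes tested, and the median was -0.20. None passed in edgeR. In DESeq2 1 of the 12 was lower, against 1.2% of all genes called in either direction. This gene, Eddm3b, had 11.4, 11.8, 6.41 and 11.1 CPM in the cKO-labelled libraries and 15.3, 21.6, 19.6 and 12.3 CPM in the controls. The groups did not overlap, and the log2 fold change was -0.76 ± 0.22 (edgeR adjusted p = 0.335, DESeq2 adjusted p = 0.0486). The most abundant were Npc2, a cholesterol-binding secreted protein, at 334 to 373 CPM in the cKO-labelled libraries and 297 to 376 CPM in the controls, and Mfge8, which binds phosphatidylserine, at 191 to 218 CPM in the cKO-labelled libraries and 168 to 205 CPM in the controls.

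Of 22 regulators of epididymal differentiation, 20 were tested. At an unadjusted edgeR p under 0.05, 8 were lower (4.87% of all genes) and 2 higher (3.5%). None passed in edgeR, and Ros1 and Lhx1 were lower in DESeq2, which called 1.2% of all genes in either direction. The median log2 fold change was -0.12. Without overlap, 3 regulators were lower in the cKO-labelled libraries (3.11% of all genes) and 3 higher (2.65%), the higher ones being Esr1 at 0.19, Dusp6 at 0.26 and Src at 0.22 on the log2 scale. Ros1, the receptor of the testis-derived factor NELL2 in the initial segment, had 5.64, 6.72, 5.92 and 5.56 CPM in the cKO-labelled libraries and 9.05, 10.7, 9.08 and 9.05 CPM in the controls, with no overlap (log2 fold change -0.67 ± 0.12, edgeR adjusted p = 0.161, DESeq2 adjusted p = 0.000686). Lhx1, a transcription factor of the Wolffian duct, had 24.0, 28.2, 20.3 and 25.3 CPM in the cKO-labelled libraries and 36.4, 44.3, 43.6 and 31.5 CPM in the controls, again with no overlap (log2 fold change -0.67 ± 0.13, edgeR adjusted p = 0.161, DESeq2 adjusted p = 0.00120). Adgrg2, an adhesion receptor of the efferent ducts and proximal epididymis, had 82.4, 78.3, 55.5 and 70.4 CPM in the cKO-labelled libraries and 92.6, 108, 84.8 and 78.8 CPM in the controls, which overlapped (log2 fold change -0.35 ± 0.13, edgeR adjusted p = 0.498).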

How the data were processed

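RNA from 8 libraries of E18.5 epididymal ducts, 4 labelled Ptk7 cKO and 4 control, was analysed from the counts per gene that the authors deposited, with no normalization. Per the labels' protocols, RNA was taken with a column kit and libraries with a TruSeq RNA kit. Per the submitters' processing notes, STAR, featureCounts and GRCm38 were used. The sources used here do not give versions, the strand setting, the annotation release or how multiply mapping reads were treated. Symbols matched 46005 of 46517 identifiers, and 61 of the 64 members had the coordinates of GENCODE M21. No member exon overlapped an exon of another gene.

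The test was edgeR 4.0.16 in R 4.3.3, on these counts: TMM factors, filterByExpr with a minimum count of 10, which kept 16469 genes, and the quasi-likelihood F test on group, with Benjamini-Hochberg adjustment at 0.05 over all genes kept. The SE is approximate, from the size of the log2 fold change over the root of its F. CPM values use TMM factors. DESeq2 1.42.0 and limma 3.58.1 (voom) were alternatives, with size factors, filters and left-out libraries. Floors are 3 counts, or 0.0999 to 0.123 CPM per library. The biological coefficient of variation was 15.2%. No 2 libraries agreed within sampling noise (chi-square over its degrees of freedom 13.7 to 81.7). Pairs with control 3 stood at 56.4 to 81.7 and all other pairs at 13.7 to 32.3. Among all genes tested, control 3 was the lowest library in 26.62% and the highest in 24.38%. The test was checked on simulated counts in which all genes had the same biological coefficient of variation. That check does not cover members with a wider spread, such as Defb19 and Defb36.

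The members, the gene lists and the tests were chosen with earlier results of these data known. Named genes followed a rule: every tested member, counts for members with 10 or more, and of each other list the 2 most abundant and those called. Of marker lists, mainly summed levels are given, and some genes beside a result were named after their values were seen. The result of 1 regulator is not reported here.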

Additional observations from a re-analysis of the deposited data

Results flagged for a closer look

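The highest or lowest library of a group stood apart from its 3 companions in 6 of 52 groups checked. The rule's rate of about 1 in 20 holds for normally distributed values and not for groups with few counts. A library with counts beside 3 at 0 is always flagged, so no excess over chance can be read from the 6. Ptk7 was 194 CPM in the library labelled Ptk7 cKO 5, against 7.33 to 12.5 CPM in the other cKO-labelled libraries. Defb36 was 3.8 CPM in Ptk7 cKO 1, against 0.115 to 0.610 CPM in the others of that label.

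The other 4 rest on few counts. Defb26 was 0.0763 CPM in Ptk7 cKO 2 and Defb45 was 0.0768 CPM in Ptk7 cKO 1, each with 0 in the other cKO-labelled libraries. Defb23 was 0.266 CPM in control 3, against 0.0348 to 0.0395 CPM in the other controls. Defb48 was 0.133 CPM in control 3, against 0.0696 to 0.0790 CPM in the other controls.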

How the results depend on the processing

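No member passed an adjusted p of 0.05 under any alternative. Of 203 member values under alternatives, 202 kept their direction, and Defb42 reversed to 0.070 with the replicate block. That block used the 4 libraries numbered 1 and 4 in both groups. The labels state no pairing. Deviations from group means correlated at -0.0996 for number 1 and 0.0144 for number 4, and at -0.128 to 0.191 between differently numbered libraries. So few pairs cannot tell whether the numbers pair the libraries. With the block 7 genes were called and the log2 fold change of Ptk7 was -4.67. edgeR called 1 gene with no filter, and 0 to 2 genes when 1 library was left out (2 without control 1). DESeq2 called 186 genes. Without the library labelled Ptk7 cKO 5, in combinations added after seeing the data, DESeq2 called 188 genes and edgeR with no filter 4, and Ptk7 was at -4.42 in both. Leaving out 1 library put Ptk7 between -4.42 and -1.46. Requiring a summed count of 10 left 25 members of the 41, and counts in 4 or more libraries left 26. The erythroid median was 0.77 over 8 libraries and 0.068 without the library labelled Ptk7 cKO 5. The causes were not tested. Depth limits the 28 members with counts that were not tested: most had under 10 counts over the 8 libraries.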
